A study of Homo sapiens with 9 samples.

Results

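The annexin and S100 genes were taken from the deposited table by symbol: ANXA followed by a number, S100A followed by a number and an optional A, and S100B, S100G, S100P and S100Z. The rule found 32 of the 28216 genes in the table, 12 annexins and 20 S100 genes. No expression value was used to choose them. Of the 32 genes, 4 (S100A7, S100A7A, S100A12 and S100B) had no count in any library, and 9 in all, these 4 included, had at most 3 counts in every library. The other 23 had more than 3 counts in some library.

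RNA was sequenced from PC3 and LNCaP cells, both established lines grown from metastases of prostate cancer, with 3 libraries in each of 3 groups. PC3 cells were labelled wild type and received no treatment. LNCaP cells, clone FCG and also labelled wild type, were moved to charcoal-stripped serum, which is depleted of steroids, and then kept for 48 h with 10 nM dihydrotestosterone (DHT) or with the vehicle, 0.01% ethanol. The sample labels and the study's supplement name the androgen as DHT, whereas its main text names the synthetic androgen R1881, and DHT is used here. PC3 cells were grown in another medium and were not placed in stripped serum, so line, medium and serum cannot be told apart in the comparisons between the lines. Each group is 1 cell line, and the labels do not say whether its 3 libraries came from separate cultures, so p-values measure the spread between these libraries, which may be technical.

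Annexins are a family of proteins that bind acidic phospholipids in the presence of calcium, and they take part in membrane trafficking, membrane repair and the organisation of the cortical cytoskeleton. S100 proteins are small EF-hand proteins that usually act as dimers, and most of them bind calcium and then dock on target proteins. The families meet in a complex in which a dimer of S100A10 holds a pair of annexin A2 molecules, and S100A11 pairs with annexin A1 in a similar manner. Most S100 genes lie side by side on the long arm of human chromosome 1.

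Between 17397706 and 25640325 reads were counted on genes per library, with a median of 21434125, and 3 counts corresponded to between 0.117 and 0.172 CPM (reads of a gene per 1000000 reads counted on genes), the most that a count of 0 allows. This limit covers counting error only. The labels were checked with genes known to mark prostate luminal or mesenchymal cells. KLK3, which encodes prostate-specific antigen, lay between 0.0787 and 0.790 CPM in PC3 libraries, between 504 and 702 CPM with vehicle and between 3969 and 4486 CPM with DHT. TMPRSS2, an androgen-regulated protease gene, lay between 23.7 and 38.5 CPM in PC3 libraries, between 161 and 207 CPM with vehicle and between 1956 and 2150 CPM with DHT. KLK2 and FOLH1 were also called lower in PC3 cells than in both LNCaP groups, whereas HOXB13, the other luminal gene listed, was not called, at 465 to 808 CPM in PC3 libraries and 407 to 554 CPM in LNCaP libraries. VIM, which encodes vimentin, was at 1144 to 1297 CPM in PC3 libraries and at 1.26 to 12.2 CPM in LNCaP libraries. The markers of leukocytes summed to at most 1.28 CPM in any library, and those of basal epithelium (KRT5, KRT14, TP63) to at most 1.48 CPM.

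PC3 cells held far more annexin and S100 transcripts than LNCaP cells. The summed level of all 32 genes was 6115 ± 102 CPM (SD, n = 3) in PC3 cells, 1214 ± 73.7 CPM (SD, n = 3) in LNCaP cells with DHT and 765 ± 13 CPM (SD, n = 3) with vehicle. Annexins made up 3520 ± 225 CPM (SD, n = 3) of the sum in PC3 cells, 848 ± 26.7 CPM (SD, n = 3) with DHT and 630 ± 9.15 CPM (SD, n = 3) with vehicle. S100 genes made up 2595 ± 281 CPM (SD, n = 3), 366 ± 49.3 CPM (SD, n = 3) and 135 ± 4.30 CPM (SD, n = 3) in the same order. The ranges of these sums did not overlap between any pair of groups. In PC3 cells 18 of the 32 genes were above 3 CPM in every library, and in each LNCaP group 9 were. In bulk RNA, fewer cells with a transcript and less of it per cell cannot be told apart.

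The composition of each family differed between the lines. S100A6 alone gave 54.3% of the S100 CPM in PC3 cells, followed by S100A16 with 19.3%, S100A10 with 9.72% and S100A11 with 8.35%. In vehicle-treated LNCaP cells S100A11 gave 77.4% and S100A13 14.8%. With DHT, S100A11 gave 62.8% and S100P 31.4%. Among annexins, ANXA2 gave the highest share in PC3 cells (30.2%), and ANXA7 in both LNCaP groups (30.4% with vehicle and 32.5% with DHT). Per kilobase of merged exons, which allows levels of different genes to be compared, S100A6 was highest in PC3 cells with 1452 CPM per kb and S100A11 second with 334 CPM per kb. Per kilobase of canonical transcript, a length chosen after the data were seen, S100A6 was again highest with 3248 CPM per kb and S100A11 was the 5th with 385 CPM per kb. S100A11 was the highest member in LNCaP cells, with 354 CPM per kb under DHT and 161 CPM per kb under vehicle. ANXA2 was the 7th member in PC3 cells at 91.7 CPM per kb of merged exons and the 2nd at 683 CPM per kb of its canonical transcript, so that ranks below S100A6 depended on the length used.

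**Figure D1:**
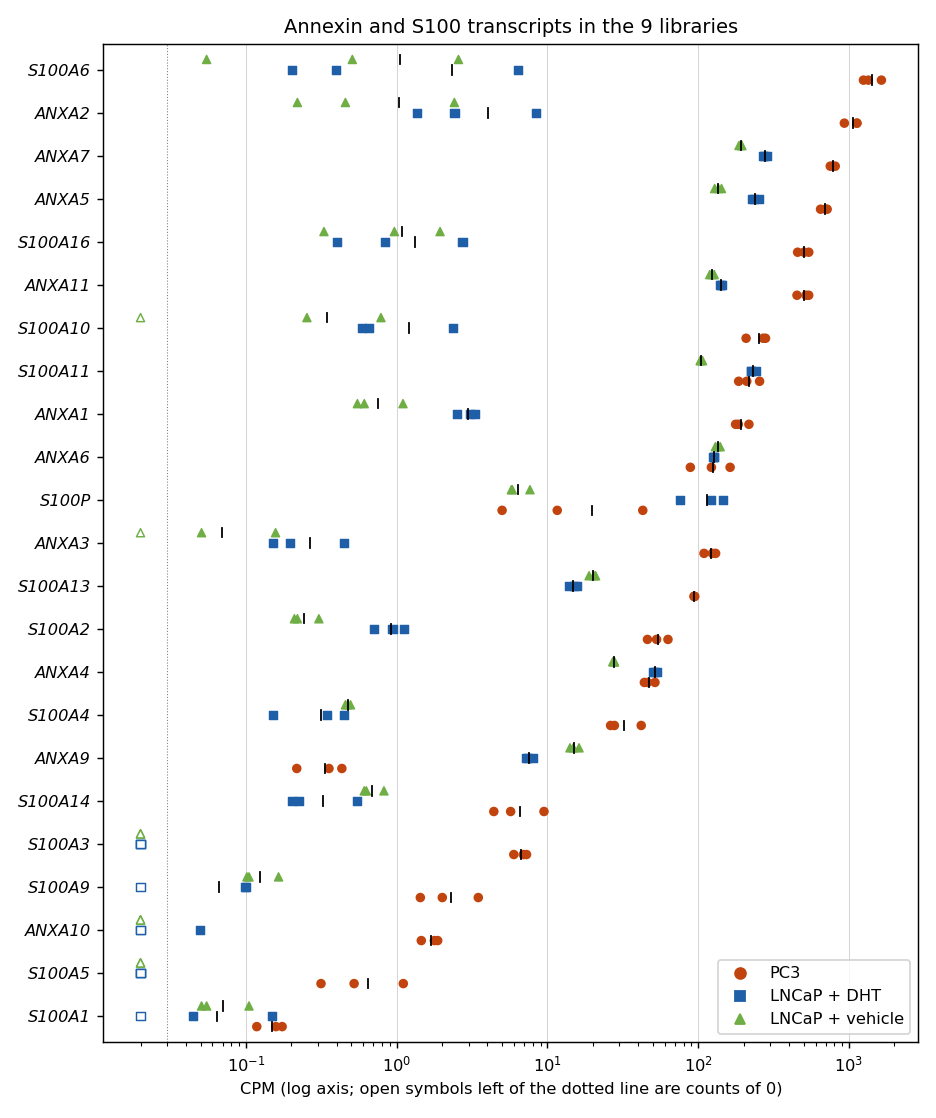
Level of the 23 members with more than 3 counts in some library, in CPM on a log axis, with 1 symbol per library (circles PC3, squares LNCaP with DHT, triangles LNCaP with vehicle) and a short bar at each group mean above 0.03 CPM; libraries with 0 counts are open symbols left of the dotted line. S100A6 and ANXA2 sit at 931 CPM or more in PC3 libraries and at 8.37 CPM or less in LNCaP libraries, whereas the group means of ANXA6 lie between 124 and 135 CPM.

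Promoter sequences from RefSeq (GRCh38.p14) were available for 29 of the 32 genes, as 250 bases before each start site, and 3 are shown because they belong to members on which the results turn and overlap no annotated exon. S100P had the largest response to DHT, and ANXA1 and S100A10 were called higher in PC3 cells than in both LNCaP groups. Capitals mark CpG dinucleotides and matches to the letters TATAAA, the core of the TATA box, on either strand. The windows are chr4:6693628-6693877 on the plus strand for S100P, chr9:73151615-73151864 on the plus strand for ANXA1 and chr1:151993860-151994109 on the minus strand for S100A10, each read 5′ to 3′ along the gene.
S100P: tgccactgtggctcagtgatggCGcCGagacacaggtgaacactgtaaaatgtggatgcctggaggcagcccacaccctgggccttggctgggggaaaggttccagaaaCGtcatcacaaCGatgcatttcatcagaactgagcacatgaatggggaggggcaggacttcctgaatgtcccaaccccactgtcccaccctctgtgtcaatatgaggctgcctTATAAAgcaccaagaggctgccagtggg
ANXA1: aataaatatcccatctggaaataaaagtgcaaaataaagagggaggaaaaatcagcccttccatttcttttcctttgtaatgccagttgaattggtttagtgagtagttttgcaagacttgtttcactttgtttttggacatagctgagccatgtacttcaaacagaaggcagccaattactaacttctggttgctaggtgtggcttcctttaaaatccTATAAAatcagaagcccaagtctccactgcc
S100A10: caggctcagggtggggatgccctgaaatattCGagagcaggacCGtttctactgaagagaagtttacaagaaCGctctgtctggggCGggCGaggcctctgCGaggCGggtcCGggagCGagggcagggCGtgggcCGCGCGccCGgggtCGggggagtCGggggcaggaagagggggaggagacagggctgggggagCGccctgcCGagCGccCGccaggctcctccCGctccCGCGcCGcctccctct
The windows differed in make-up. S100A10 had 24 CpG dinucleotides and no TATAAA, ANXA1 had 0 CpG dinucleotides with TATAAA starting at base -31, and S100P had 4 CpG dinucleotides with TATAAA starting at base -28. The median window held 5 CpG dinucleotides over the members and 11 over all 35116 windows in the table. TATAAA was found in at least 1 window of 14 of the 29 genes, and in 13.05% of all 27305 genes with a window. TGANTCA, which includes the AP-1 core TGA(C/G)TCA but admits any middle base, was found in 5 of the 29 genes and in 8.06% of all genes. In S100A12 the match read TGAATCA, which is not that core. AGAACA, a core of the hexamer bound by steroid receptors, was found in 2 of the 29 genes (ANXA11 and S100A3) and in 14.8% of all genes. Genes can have several windows, neighbouring S100 genes derive from each other and both strands were searched, so these shares are descriptions, and no match says only that the letters are not in this window.

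Whether annexin and S100 transcripts differ between an androgen-insensitive and an androgen-sensitive line was examined against both LNCaP groups. In PC3 against DHT-treated LNCaP cells, 19 of the 32 genes passed the filter of more than 3 CPM in at least 3 libraries. Of these, 14 were called higher in PC3 cells (adjusted p under 0.05 and a fold of at least 2, edgeR's quasi-likelihood test), 2 were called lower and 3 were not called, whereas 24% of all 12541 genes tested were called higher and 22.1% lower. Against vehicle-treated cells, 15 of 19 were called higher, 1 lower and 3 not, beside 22.2% of all 12686 genes called higher and 21% lower. The median log2 fold change of the members tested was 4.33 against DHT and 3.26 against vehicle, and that of all genes 0.04 and 0.03. Members that passed the filter only through PC3 libraries had to differ and set these medians, so neither the counts nor the medians describe the families as a whole. Groups did not overlap for 16 of the 19 members against DHT and 17 of 19 against vehicle, as for 86.4% and 85.9% of all genes tested. The comparisons share the PC3 libraries.

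The transcripts of ANXA2 and S100A10 were present in PC3 cells and close to absent in LNCaP cells, and their proteins and complex were not measured. ANXA2 (chromosome 15, 60347134 to 60402883, GRCh38) encodes a membrane-binding protein that, with S100A10, tethers plasminogen and its activators at the cell surface. ANXA2 was at 1125, 1129 and 931 CPM in the PC3 libraries, at 8.37, 2.42 and 1.36 CPM with DHT and at 2.41, 0.220 and 0.457 CPM with vehicle. PC3 libraries were all far above LNCaP libraries, and replicate 1 was the highest library in each LNCaP group. The log2 fold change of ANXA2 was 8.0 (SE 0.57, adjusted p = 3.85e-06, edgeR) against DHT and 10.02 (SE 0.50, adjusted p = 6.35e-07, edgeR) against vehicle. Of the 74-nt stretches of its canonical transcript, 32.3% also occur elsewhere in the genome, and STAR's gene counts leave out reads with more than 1 position. This lowers the count of ANXA2 by an unknown amount, so its count is uncertain, as are its share and ranks given earlier. ANXA2P2, a processed pseudogene of ANXA2, was at 9.68 to 14.3 CPM in PC3 libraries and at most 0.179 CPM in LNCaP libraries.

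S100A10 (chromosome 1, 151982915 to 151993859), whose CpG-rich promoter is printed above, was at 270, 279 and 208 CPM in PC3 libraries, at 2.37, 0.592 and 0.655 CPM with DHT and at 0.786, 0 and 0.254 CPM with vehicle. As with ANXA2, replicate 1 was the highest library of each LNCaP group. S100A10 had a log2 fold change of 7.66 (SE 0.38, adjusted p = 5.26e-07, edgeR) against DHT and 9.49 (SE 0.40, adjusted p = 2.84e-07, edgeR) against vehicle. Per kilobase of canonical transcript, the level of S100A10 was 0.555, 0.573 and 0.516 times that of ANXA2 in the PC3 libraries, a ratio that carries the uncertainty of the ANXA2 count given above. In LNCaP libraries S100A10 rested on 0 to 53 counts, and the ratio is not read there.

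S100A6, S100A16 and ANXA3 showed differences of similar size. S100A6 (chromosome 1, 153534599 to 153536244), which encodes calcyclin, was at 1343, 1246 and 1639 CPM in PC3 libraries, at 6.40, 0.395 and 0.202 CPM with DHT and at 2.57, 0.0549 and 0.508 CPM with vehicle. Its log2 fold change was 9.17 (SE 0.84, adjusted p = 1.81e-05, edgeR) against DHT and 10.40 (SE 0.58, adjusted p = 1.15e-06, edgeR) against vehicle. Its DHT libraries were uneven, with 143, 8 and 4 counts. S100A16 (153606886 to 153613145), a broadly expressed S100 protein, was at 503, 456 and 541 CPM in PC3 libraries and between 0.329 and 2.73 CPM in LNCaP libraries, with log2 fold changes of 8.51 (SE 0.42) and 8.86 (SE 0.33). ANXA3 (chromosome 4, 78551747 to 78610451) was at 124, 109 and 130 CPM in PC3 libraries and at 0 to 0.448 CPM in LNCaP libraries, with log2 fold changes of 8.77 (SE 0.20) and 10.66 (SE 0.25). All 4 of these S100A16 and ANXA3 contrasts were called, with groups that did not overlap.

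Replicate 1 of each LNCaP group, which held the most reads of these genes, also held the most reads of other transcripts typical of PC3 cells. Over 122 genes outside the families with a PC3 mean above 100 CPM and an LNCaP mean under 1% of it, the summed level was 0.664%, 0.255% and 0.216% of the PC3 mean in the DHT libraries and 0.433%, 0.225% and 0.252% in the vehicle libraries. ANXA2 was at 0.789%, 0.228% and 0.128% of its PC3 mean with DHT and at 0.227%, 0.0207% and 0.0431% with vehicle. S100A6 was at 0.454%, 0.0280% and 0.0143% with DHT and at 0.182%, 0.00389% and 0.0360% with vehicle. Without DHT replicate 1 the log2 fold change of S100A6 against DHT was 12.19, that of ANXA2 9.15, that of S100A10 8.67, that of S100A16 9.65 and that of ANXA3 9.41. Without vehicle replicate 1, those against vehicle were 12.25, 11.61, 10.87, 9.59 and 11.91 in the same order of genes. The levels of these genes in LNCaP libraries moved with the other PC3-typical transcripts, and the part of those transcripts in the differences was not tested. In the other direction, 46 genes typical of LNCaP cells by the mirrored rule summed to between 0.194% and 0.210% of their LNCaP mean in the PC3 libraries.

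**Figure D2:**
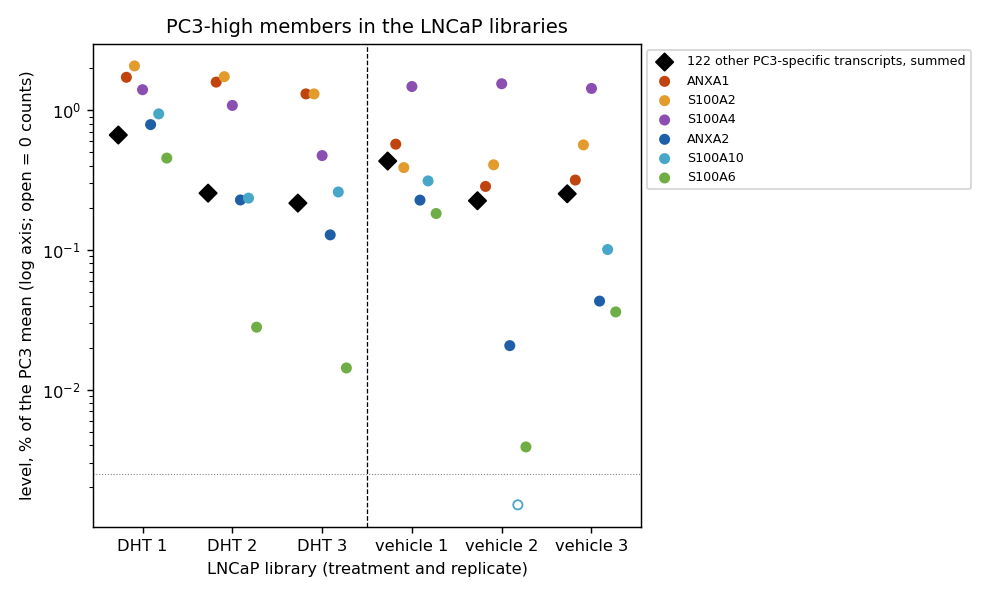
Level of 6 members in each LNCaP library, in percent of their PC3 mean on a log axis, beside the summed level of 122 other PC3-specific transcripts (black diamonds); an open symbol below the dotted line is a count of 0. S100A6, ANXA2 and S100A10 peak in replicate 1 of each group, as the diamonds do, whereas ANXA1 and S100A2 lie above 1.3% in all 3 DHT libraries and below 0.6% in all 3 vehicle libraries.

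ANXA1, S100A2 and S100A4 were also called higher in PC3 cells. ANXA1 (chromosome 9, 73151865 to 73170393), known for the anti-inflammatory action of its secreted form, was at 217, 184 and 177 CPM in PC3 libraries, at 3.31, 3.06 and 2.52 CPM with DHT and at 1.101, 0.549 and 0.609 CPM with vehicle. Its log2 fold change was 6.02 (SE 0.14, adjusted p = 2.14e-08, edgeR) against DHT and 8.01 (SE 0.19, adjusted p = 2.47e-08, edgeR) against vehicle. S100A2 (chromosome 1, 153561108 to 153567890), best known from basal epithelial cells, was at 46.04, 52.9 and 63.0 CPM in PC3 libraries, at 1.12, 0.938 and 0.706 CPM with DHT and at 0.210, 0.220 and 0.305 CPM with vehicle. For ANXA1 and S100A2 the 3 groups were fully separated, with PC3 highest and vehicle lowest. S100A4 (153543613 to 153550136), which is associated with cell motility and metastasis, was at 27.8, 26.2 and 41.8 CPM in PC3 libraries and at 0.151 to 0.494 CPM in LNCaP libraries. The log2 fold changes of S100A2 were 5.86 (SE 0.19) and 7.77 (SE 0.21), and those of S100A4 6.62 (SE 0.33) and 6.08 (SE 0.27), against DHT and vehicle, and all were called.

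Other members were found at low levels in PC3 libraries and at or near 0 in LNCaP libraries. S100A3 (chromosome 1, 153547329 to 153549258), known from hair cuticle, had 152, 167 and 175 counts in PC3 libraries and 0 in each LNCaP library. The lower bound on its fold was about 49.2 against DHT and about 40.5 against vehicle, taking 3 counts per library as the limit. S100A5 had 8, 12 and 28 counts in PC3 libraries and 0 in LNCaP libraries, with lower bounds of about 4.74 and 3.90. The PC3 means carried TMM factors and the limit did not, so these bounds are approximate. ANXA10 (chromosome 4, 168092537 to 168187736), an annexin of gastric epithelium, had 37, 43 and 45 counts in PC3 libraries against 1 count over the DHT libraries and 0 over the vehicle libraries. The ratio of ANXA10 to the DHT group was 113, with an exact 95% counting interval of 19.9 to 4484. S100A9, a subunit of the calprotectin dimer of neutrophils, had 51, 33 and 88 counts in PC3 libraries and 0 to 3 in LNCaP libraries. S100A8, its partner in that dimer, had at most 1 count in any library. The 7 leukocyte markers summed to 0.739 to 1.02 CPM in PC3 libraries, 0.857 to 1.28 CPM with DHT and 0.472 to 0.660 CPM with vehicle, with TYROBP at 0 counts in every library. Single markers went either way, PTPRC with 7, 4 and 5 counts in PC3 libraries and 0 in LNCaP libraries, and SPI1 with 5, 4 and 2 counts in PC3 libraries against 6 to 15 in LNCaP libraries. S100A5, ANXA10 and S100A9 did not pass the filter on low counts and entered no test with the filter.

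ANXA5, ANXA7, ANXA11 and S100A13, which were above 10 CPM in every library, were called higher in PC3 cells with log2 fold changes between 1.51 and 2.67. ANXA5 (chromosome 4, 121667946 to 121696995), the protein used to stain exposed phosphatidylserine, was at 700, 716 and 647 CPM in PC3 libraries, 254, 226 and 234 CPM with DHT and 143, 136 and 128 CPM with vehicle. Its log2 fold change was 1.53 (SE 0.09) against DHT and 2.37 (SE 0.08) against vehicle. ANXA7, also called synexin, and ANXA11, which tethers RNA granules to lysosomes, had log2 fold changes of 1.51 (SE 0.07) and 1.83 (SE 0.09) against DHT and of 2.05 (SE 0.06) and 2.05 (SE 0.09) against vehicle. S100A13 (chromosome 1, 153618787 to 153631360), which takes part in the non-classical release of FGF1, was 2.67 (SE 0.08) and 2.26 (SE 0.06) log2 units higher. The 3 groups of ANXA5 were separated and every one of these contrasts was called. S100A14, at 4.41 to 9.48 CPM in PC3 libraries and 0.202 to 0.823 CPM in LNCaP libraries, was also called, with log2 fold changes of 4.33 (SE 0.45) and 3.26 (SE 0.36).

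ANXA9 was the only member called lower in PC3 cells against both LNCaP groups. ANXA9 (chromosome 1, 150982249 to 150995634), an annexin whose core lacks the usual calcium-binding sites, was at 0.433, 0.217 and 0.356 CPM in PC3 libraries, 7.25, 7.45 and 8.07 CPM with DHT and 14.1, 16.2 and 14.8 CPM with vehicle. The groups did not overlap. Its log2 fold change was -4.46 (SE 0.21, adjusted p = 3.70e-07, edgeR) against DHT and -5.43 (SE 0.19, adjusted p = 1.14e-07, edgeR) against vehicle. With reads of both strands counted it was -2.57 and -3.45, since 67.6% to 82.8% of the reads over ANXA9 in PC3 libraries lay on the opposite strand.

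ANXA6, ANXA4 and S100A11 were close between PC3 and DHT-treated LNCaP cells. ANXA6 (chromosome 5, 151100706 to 151157815), the annexin with a duplicated core, was at 122, 163 and 88.6 CPM in PC3 libraries and between 126 and 140 CPM in LNCaP libraries, with log2 fold changes of -0.02 (SE 0.20, adjusted p = 0.946, edgeR) and -0.09 (SE 0.20, adjusted p = 0.694, edgeR). The PC3 libraries spanned all LNCaP values, and the sign turned without PC3 replicate 3, with 0.17 and 0.089. ANXA4 had log2 fold changes of -0.13 (SE 0.08, adjusted p = 0.145, edgeR) against DHT and 0.80 (SE 0.08, adjusted p = 2.34e-05, edgeR) against vehicle, the second below a fold of 2. S100A11 had -0.08 (SE 0.11, adjusted p = 0.499, edgeR) against DHT and 1.07 (SE 0.11, adjusted p = 3.17e-05, edgeR) against vehicle, where it was called. Without PC3 replicate 3 the second value was 0.93, under a fold of 2, and without PC3 replicate 2 the first was 0.014.

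**Figure D3:**
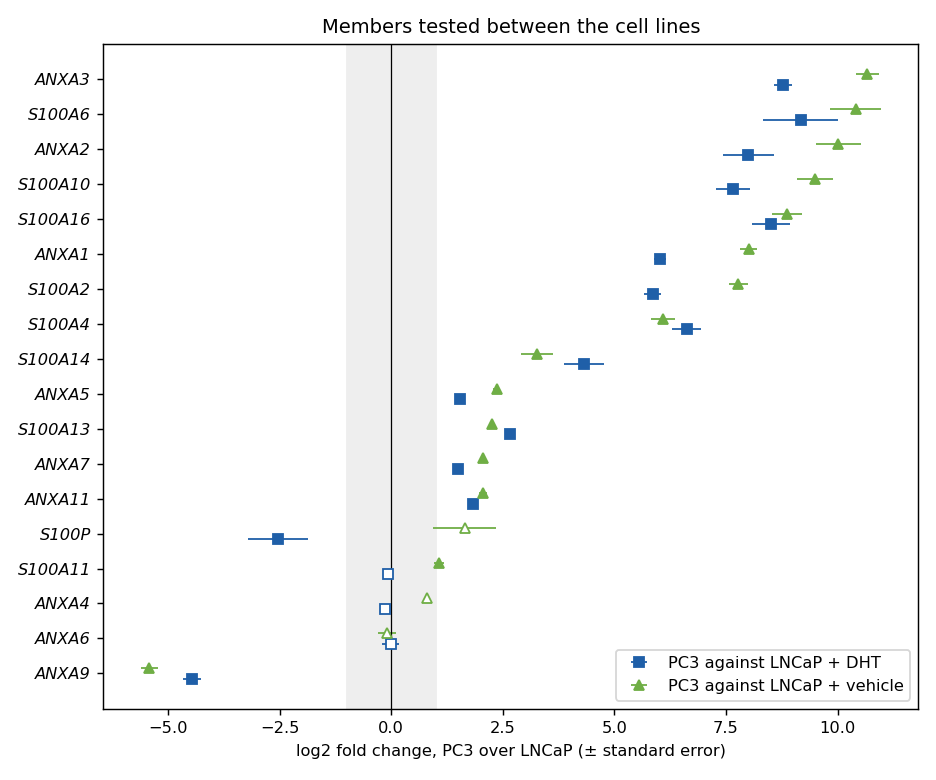
Log2 fold change of PC3 over LNCaP cells for the 18 members tested with counts in every group, with bars of 1 standard error, against DHT-treated cells (squares) and vehicle-treated cells (triangles); filled symbols are called, open ones are not, and the grey band is a fold under 2. ANXA3, S100A6 and ANXA2 lie at the top, ANXA9 lies at the bottom, and S100P is called lower against DHT while its value against vehicle is above 0.

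Whether androgen changes these transcripts within LNCaP cells was examined in DHT against vehicle, where 9 of the 32 genes passed the filter. Of these, 2 were called higher (S100P and S100A11) and 0 lower, beside 6.54% of all 11697 genes called higher and 7.49% lower. By the adjusted p alone, with no minimum fold, 6 rose and 2 fell, beside 37.1% of all genes that rose and 37.8% that fell. The median log2 fold change was 0.53 over the 9 members and -0.01 over all genes.

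S100P was the member with the largest response. S100P (chromosome 4, 6693878 to 6697170) encodes a secreted and cytoplasmic protein first found in placenta. It was at 147, 122 and 75.4 CPM in DHT libraries and at 7.65, 5.76 and 5.84 CPM in vehicle libraries. Every DHT library lay above every vehicle library, and the fold was 17.9, a log2 fold change of 4.17 (SE 0.24, adjusted p = 5.12e-09, edgeR). PC3 libraries were uneven, with 11.6, 5.00 and 42.9 CPM. All PC3 libraries lay below the DHT libraries, with a log2 fold change of -2.54 (SE 0.67, adjusted p = 0.00779, edgeR), which became -3.78 without PC3 replicate 3. Against vehicle the groups overlapped, and the log2 fold change of 1.64 (SE 0.70, adjusted p = 0.0585, edgeR) was not called, with 0.39 (adjusted p = 0.245, edgeR) without PC3 replicate 3 and 2.09 (adjusted p = 0.00603, edgeR) without PC3 replicate 2, where it was called. It was also called by the likelihood ratio test that the study used (adjusted p = 0.0177, edgeR), with no filter (adjusted p = 0.042, edgeR) and in a fit of all 9 libraries (adjusted p = 0.041, edgeR). PC3 replicate 3 was also the PC3 library with the most KLK3, at 0.790 CPM against 0.0787 and 0.0870 CPM, and the part of that in the S100P level was not tested.

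S100A11 (chromosome 1, 152032506 to 152047907), the partner of annexin A1 that also acts in membrane repair, was at 240, 224 and 225 CPM in DHT libraries and at 107, 104 and 103 CPM in vehicle libraries. The groups were well apart, and the log2 fold change was 1.14 (SE 0.04, adjusted p = 8.51e-11, edgeR), a fold of 2.20. The DHT libraries reached the level of the PC3 libraries, which were at 210, 185 and 255 CPM.

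Of the annexins tested under DHT, 4 rose by less than a fold of 2. ANXA4, an annexin of epithelial cells, was at 51.7, 53.1 and 50.4 CPM with DHT and at 27.1, 27.8 and 27.8 CPM with vehicle, a log2 fold change of 0.91 (SE 0.05, adjusted p = 4.11e-09, edgeR). ANXA5 rose by 0.81 (SE 0.05, adjusted p = 1.67e-08, edgeR), ANXA7 by 0.53 (SE 0.04, adjusted p = 7.83e-08, edgeR) and ANXA11 by 0.20 (SE 0.04, adjusted p = 0.000585, edgeR) on the log2 scale. ANXA9 fell by 0.99 (SE 0.09, adjusted p = 5.73e-07, edgeR) and S100A13 fell by 0.43 (SE 0.08, adjusted p = 0.000291, edgeR). ANXA6, at 126, 126 and 127 CPM with DHT and 130, 140 and 135 CPM with vehicle, had a log2 fold change of -0.09 (SE 0.04, adjusted p = 0.0505, edgeR). No DHT library overlapped a vehicle library in any of the 9 members, and the same held for 77.8% of all genes tested. Without DHT replicate 3 or vehicle replicate 1, ANXA9 passed the fold of 2, at -1.03 in each case, and 3 members were then called.

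**Figure D4:**
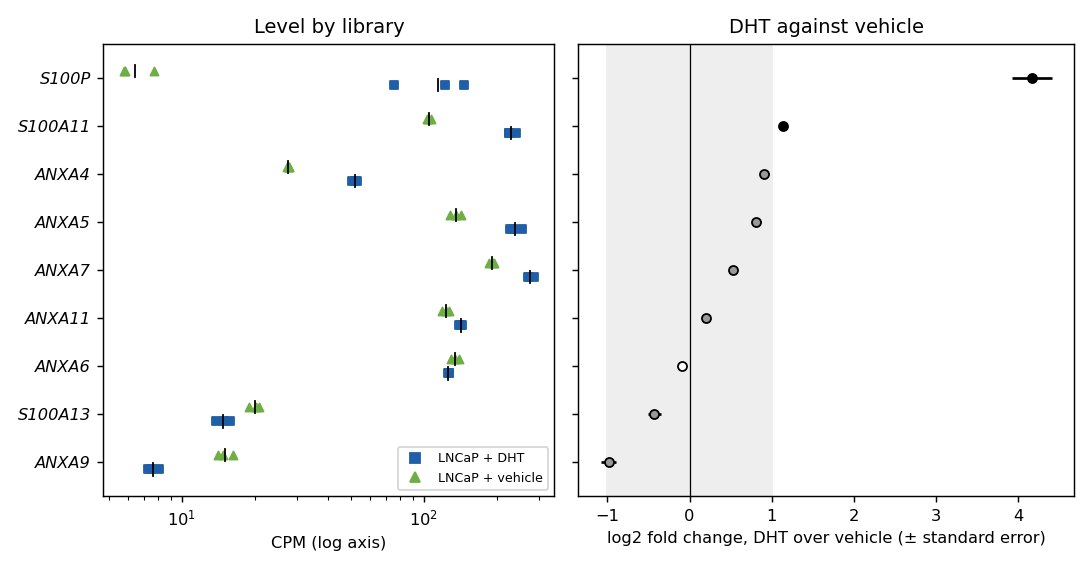
Left, level of the 9 members tested in each LNCaP library in CPM on a log axis (squares DHT, triangles vehicle, bars at the means). Right, their log2 fold change with bars of 1 standard error; black is called, grey has an adjusted p under 0.05 with a fold under 2, open has neither, and the grey band is a fold under 2. S100P stands alone at 4.17, S100A11 lies just past the band at 1.14, and ANXA9 is lowest at -0.99.

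Some members below the filter also differed between the LNCaP groups. Without a filter, 24 members were tested and 7 were called, 6 higher and 1 lower, beside 6.66% of 20429 genes called higher and 7.73% lower. ANXA1 had 74, 62 and 50 counts with DHT and 21, 10 and 12 with vehicle, a log2 fold change of 1.99 (SE 0.26, adjusted p = 2.46e-07, edgeR). S100A2 had 25, 19 and 14 counts with DHT and 4, 4 and 6 with vehicle, a log2 fold change of 1.91 (SE 0.41, adjusted p = 0.000292, edgeR). As percent of the PC3 mean, ANXA1 was at 1.31% to 1.72% with DHT and 0.285% to 0.571% with vehicle, and S100A2 at 1.31% to 2.07% and 0.388% to 0.565%. ANXA2 (2.02, SE 0.53, adjusted p = 0.00222, edgeR) and S100A10 (1.82, SE 0.59, adjusted p = 0.0113, edgeR) were also called higher. ANXA2 had 187, 49 and 27 counts with DHT and 46, 4 and 9 with vehicle. S100A10 had 53, 12 and 13 counts with DHT and 15, 0 and 5 with vehicle. For both genes vehicle replicate 1 lay above DHT replicate 3 in CPM, so the groups overlapped. S100A14 was called lower at -1.06 (SE 0.44, adjusted p = 0.0477, edgeR), on 4 to 15 counts. Without replicate 1 of both groups, a choice made after the data were seen, ANXA1, S100A2, ANXA2 and S100A10 were still called, with 2.27, 1.63, 2.46 and 2.21, and S100A14 was not, with -0.90.

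The order of genes on chromosome 1 showed where within the S100 cluster the reads lay. Chromosome 1 holds 16 of the 20 S100 genes within 1649125 bases, and 14 of them lie in 274186 bases from S100A9 to S100A1 (153357854 to 153632039). Within that stretch, S100A12, S100A8, S100A7A and S100A7, which lie next to each other, had at most 1 count in any library. The neighbouring run from S100A6 to S100A13 held all 7 genes of the stretch that were above 3 CPM in every PC3 library, with S100A5 at 0.648 ± 0.410 CPM (SD, n = 3) between S100A6 and S100A4. In LNCaP cells S100A13 was the only gene of the stretch above 3 CPM in every library, at 14.9 ± 0.995 CPM (SD, n = 3) with DHT and 20.01 ± 1.02 CPM (SD, n = 3) with vehicle. S100A1, known from heart and skeletal muscle, at the other end, had 0 to 4 counts. S100A11, outside the stretch, was above 100 CPM in all 9 libraries, whereas S100A10, its nearest S100 gene, was above 200 CPM in PC3 libraries and below 3 CPM in LNCaP libraries.

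**Figure D5:**
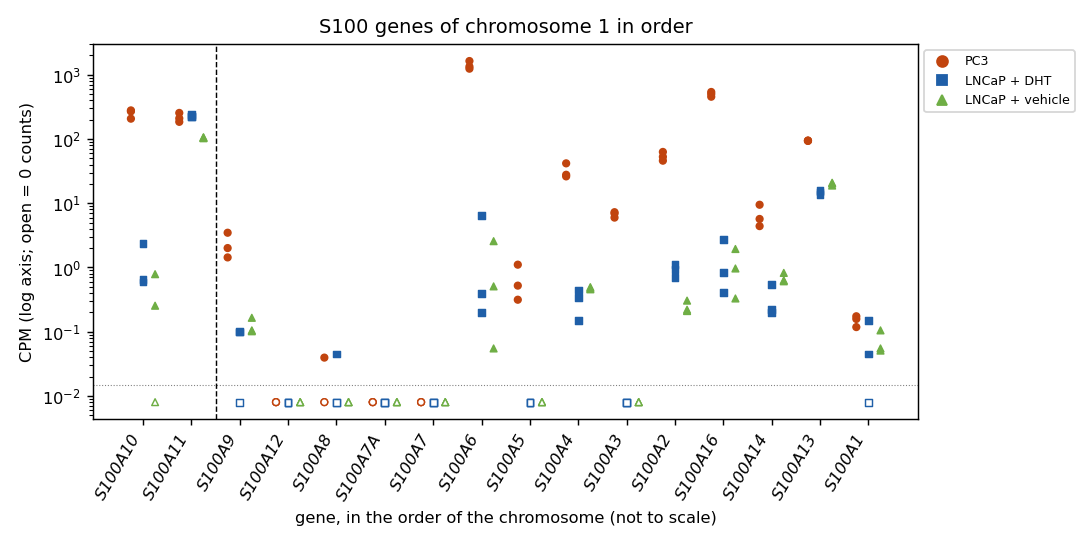
Level of the 16 S100 genes of chromosome 1 in each library, in CPM on a log axis, in the order of the chromosome and not to scale; open symbols below the dotted line are counts of 0, and the dashed line separates S100A10 and S100A11 from the stretch that starts at S100A9. PC3 libraries (circles) are high from S100A6 to S100A13, apart from S100A5, and LNCaP libraries are above 10 CPM for S100A11 and S100A13 alone.

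The epidermal genes that share this region of chromosome 1 were at or near 0. The 7 S100 fused-type genes, among them FLG (filaggrin), summed to at most 0.813 CPM in any library, almost all of it from TCHH, and none was tested. The 16 genes of the cornified envelope listed summed to 0 in PC3 libraries and to at most 0.179 CPM in LNCaP libraries. Of 6 markers of keratinised epidermis, only KRT10 was tested, and it was not called in any comparison.

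Of the 12 listed partners of annexin A2 and S100A10, 9 were tested against DHT and 5 were called higher in PC3 cells and 2 lower, with the same counts against vehicle, beside 24% and 22.1% of all genes against DHT and 22.2% and 21% against vehicle. The median log2 fold changes of the list were 1.66 and 1.96. Between the LNCaP groups 7 of the list were tested, with 1 called higher and 0 lower, beside 6.54% and 7.49% of all genes. PLAT and ANXA2R passed the filter only through PC3 libraries, where they are high, and TRPV6 only through LNCaP libraries. Neither the counts nor the medians therefore describe the list as a whole. PLAT, which encodes tissue plasminogen activator, was at 347, 344 and 492 CPM in PC3 libraries and at most 1.43 CPM in LNCaP libraries, with log2 fold changes of 9.45 (SE 0.52) and 9.42 (SE 0.33). AHNAK, a scaffold bound by the tetramer, was at 669, 657 and 677 CPM in PC3 libraries, 212, 218 and 204 CPM with DHT and 33.1, 29.6 and 31.4 CPM with vehicle. It was the 1 gene of the list called under DHT, with a log2 fold change of 2.75 (SE 0.05, adjusted p = 1.33e-13, edgeR). TRPV6, a calcium channel carried to the membrane by annexin A2 and S100A10, was at 19.9 to 24.9 CPM in LNCaP libraries, with 1 count over the PC3 libraries. PLGRKT, a plasminogen receptor, had log2 fold changes of -2.76 (SE 0.10) and -3.39 (SE 0.07), and TRPV6 and PLGRKT were called lower in PC3 cells.

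The other lists of calcium-binding and membrane repair genes are read against the same shares of all genes. For PC3 cells these were 24% higher and 22.1% lower against DHT, and 22.2% and 21% against vehicle. For DHT against vehicle in LNCaP cells they were 6.54% higher and 7.49% lower. Of 20 genes of ferlins, copines and membrane repair, 12 were tested against DHT, with 6 called higher in PC3 cells and 1 lower, and against vehicle 7 were higher and 2 lower. Between the LNCaP groups only 8 of the list were tested. Genes that passed the filter only through PC3 libraries, MYOF among them, entered because they are high there, so these counts do not describe the list as a whole. MYOF, which encodes the ferlin myoferlin, was at 910, 866 and 936 CPM in PC3 libraries and between 1.21 and 4.92 CPM in LNCaP libraries, with log2 fold changes of 8.12 (SE 0.28) and 9.0 (SE 0.21). Of 15 calmodulin and penta-EF-hand genes, 11 were tested, with 2 called higher and 3 lower against DHT and 3 higher and 3 lower against vehicle, near the shares of all genes. CAPN2, the large subunit of m-calpain, was at 1603, 1578 and 1977 CPM in PC3 libraries, 207, 182 and 171 CPM with DHT and 49.7, 46.9 and 47.8 CPM with vehicle. It was the 1 gene of that list called under DHT, with a log2 fold change of 1.96 (SE 0.07, adjusted p = 4.02e-11, edgeR). Of 9 receptors and partners of S100 proteins, 6 were tested, with 2 called higher and 0 lower against DHT and 1 in each direction against vehicle. AGER, which encodes the receptor RAGE, had a log2 fold change of 1.07 (SE 0.23) against DHT and of 0.97 (SE 0.20), not called, against vehicle. None of the receptors and partners of S100 proteins was called under DHT, and the median log2 fold change of its 5 genes tested was -0.17.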

How the data were processed

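The authors trimmed reads with cutadapt, aligned them to GRCh38 with STAR and removed PCR duplicates with UMI-tools 1.1.2. The submitters' processing notes give cutadapt 4.1 and STAR 2.7.7a, whereas the study's supplement names other versions of both. The authors deposited unnormalised counts per gene symbol. All 253944 values of the table equal the forward-strand STAR counts, and 0 columns were left out. Between 20.3% and 25.4% of reads were not on a gene.

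The 6 libraries of a comparison were fitted alone with edgeR 4.0.16 (R 4.3.3): genes above 3 CPM in at least 3 libraries, TMM factors, the quasi-likelihood test and Benjamini-Hochberg adjustment over all genes tested. The study's likelihood ratio test was an alternative, and its batch term was left out because the batches are not named in the sources used here. CPM use TMM factors over all 9 libraries. A gene with 0 counts in a whole group has only an approximate lower bound, against 3 counts per library without TMM factors. On simulated counts of 12159, 12284 and 11538 genes for PC3 against DHT, PC3 against vehicle and DHT against vehicle, 200, 200 and 199 of 200 changed genes were recovered. Recovery of changes in the measured libraries, where members such as S100A6 and S100P were uneven between replicates, was not tested.

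The members, the gene lists and the rule for named genes (every member, and up to 3 called genes of each list per direction) were chosen with earlier results of these data known. Over 10029 genes, deviations from the mean of each group correlated at 0.158, 0.238 and 0.216 between DHT and vehicle libraries of the same number. Between different numbers the values were -0.27 to 0.10. PC3 and DHT libraries of different numbers reached 0.224, so values of this size also occurred without a shared number. Deviations from a group mean sum to 0, so these correlations are not independent of each other. That the replicate numbers pair the DHT and vehicle libraries was therefore an assumption, made on the counts and not on a label. Locations are from GENCODE 44.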

Additional observations from a re-analysis of the deposited data

Results flagged for a closer look

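Reads on the strand opposite to the gene, which entered only the alternative with both strands counted, were more numerous in every PC3 library than in every vehicle-treated library for 13 members. For 11 of the 13 they were at most 0.620% of the reads over the gene in PC3 libraries, and for S100A13 and S100A1 they were at least 10% in every PC3 library. For S100A13 they averaged 23.8 CPM in PC3 cells, with a range of 21.5 to 26.4 CPM, against 17.3 to 19.6 CPM in vehicle-treated cells, and they made up 18.6% to 21.7% of the reads over the gene in PC3 libraries and 44.7% to 50.8% in LNCaP libraries. For S100A1 they averaged 2.33 CPM in PC3 cells, with a range of 2.11 to 2.70 CPM, against 0.987 to 1.82 CPM with vehicle. The exons of S100A13 and S100A1 overlap by 235 bases on opposite strands, and S100A1 itself had 0 to 4 counts in any library.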

How the results depend on the processing

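The counts of members called kept within 1.5 times of 16, 16 and 2 under most alternatives, and the cause of the changes below was not tested unless stated. With the replicate number as a block, 16, 16 and 2 members were called in PC3 against DHT, PC3 against vehicle and DHT against vehicle, so the block changed no member's call. Leaving out each library in turn gave 16, 15 to 17 and 2 to 3 members, with 0 to 1 called lower under DHT. In DHT against vehicle, the adjusted p alone gave 8 members (6 higher, 2 lower), at least 10 counts in 3 libraries 7 (6 higher, 1 lower), no filter 7 (6 higher, 1 lower) and all 9 libraries 4 (4 higher), the last 3 because they admit more members (16, 24 and 19). In the same order, these settings tested 11697, 13974, 20429 and 12843 genes. Over all genes they called 4345, 1093, 1361 and 876 higher and 4418, 1265, 1580 and 1002 lower. Without replicate 1 of both LNCaP groups, chosen after seeing the data, 3 of 9 members were called (1 lower), beside 1612 of 11697 genes. With no filter in addition, 6 of 24 members were called (all higher), beside 2609 of 20429 genes. Over all listed genes, with label-check and cell-type markers counted in, 6 of 38 tested were called under DHT, beside 1641 of all 11697 genes. Of these 6, only AHNAK and CAPN2 were outside the label check. With the adjusted p alone 29 of 38 were called, beside 8763 of 11697. With no filter it was 12 of 81, beside 2941 of 20429. Without replicate 1 in addition it was 11 of 81, beside 2609 of 20429. DESeq2 size factors moved the summed level of all members to 6222 CPM in PC3 cells and 750 CPM in vehicle-treated cells. Among log2 fold changes, 3 close to 0 changed sign when a library was left out: that of ANXA6 against DHT ranged from -0.27 to 0.17, that of ANXA6 against vehicle from -0.35 to 0.089 and that of S100A11 against DHT from -0.22 to 0.014. At 3 counts per 17397706 to 25640325, levels below 0.117 to 0.172 CPM could not be told from 0.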
